A study of Mus musculus with 2 samples.

Results

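Secreted antagonists of Wnt signaling were followed in single dermal cells of healed mouse skin wounds. The set held 7 genes of the 27998 in the tables, namely Sfrp1, Sfrp2, Sfrp4, Sfrp5, Frzb, Dkk2 and Dkk3, taken by symbol. Transcripts were counted as unique molecular identifiers (UMIs) in 1 control library and 1 SM22-SmoM2 library. The control mice were SM22rtTA; tetO-Cre; R26-Tomato, and the SM22-SmoM2 mice SM22rtTA; tetO-Cre; R26-SmoM2/Tomato, where SmoM2 encodes a constitutively active Smoothened and switches on Hedgehog (Hh) signaling. In both genotypes the promoter of SM22α (Tagln) drives rtTA, so that doxycycline activates Cre and turns on Tomato, a red fluorescent protein. The mice were 4 to 5 weeks old and received doxycycline chow at 20 g/kg from day 1 after wounding. Wounds were taken 3 days after re-epithelialization was complete, the dermis was digested with collagenase, and Tomato+ cells were sorted. Each library pooled wounds of several mice, so genotype and library cannot be told apart and no test between genotypes was possible.

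Wnt proteins are lipid-modified ligands that bind Frizzled receptors and the co-receptors LRP5 and LRP6, and in the canonical pathway they stabilise β-catenin, which acts with TCF and LEF factors. Secreted frizzled-related proteins (Sfrp1, Sfrp2, Sfrp4, Sfrp5 and Frzb, also called Sfrp3) carry a cysteine-rich domain like that of Frizzled and can bind Wnt ligands outside the cell. Dickkopf proteins work differently, since Dkk2 binds LRP5 and LRP6, whereas Dkk3 is a divergent family member whose part in Wnt signaling is less clear. In skin, dermal Wnt activity accompanies formation of the dermal papilla, the cluster of specialised fibroblasts at the base of the hair follicle.

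The genes lie on 6 chromosomes of GRCm38. Sfrp2 spans chr3:83766321-83774316 on the plus strand and Dkk2 spans chr3:132085292-132180304 on the plus strand. Sfrp5 is at chr19:42197971-42202252 and Frzb at chr2:80411970-80447625, both on the minus strand. Sfrp4 is at chr13:19623104-19632994 on the plus strand, Dkk3 at chr7:112116017-112159057 on the minus strand, and Sfrp1 at 23411502 to 23449632 of chromosome 8 on the plus strand. Sfrp2 is overlapped on the opposite strand by the antisense gene Gm26771, which was counted as a gene of its own. The strand counted is not given in the sources used here, and whether reads of 1 gene were counted for the other was not tested. No other member overlaps an annotated gene. Promoter sequences were matched by symbol for 4 members, Sfrp2, Sfrp5, Frzb and Dkk2. The 250 bases upstream of the start of Sfrp2 and of Sfrp5 (RefSeq, GRCm38.p6) are shown because, of these 4 members, they were the 1 that was 2-fold lower and the 1 with the largest ratio in the other direction between the libraries, Sfrp2 at chr3:83766071-83766320 and Sfrp5 at chr19:42202253-42202502. Both are written 5′ to 3′ on the strand of the gene, in lower case, with capitals for a match to CCACCC, the core of the site bound by Gli factors, which are the transcription factors of the Hh pathway.
Sfrp2: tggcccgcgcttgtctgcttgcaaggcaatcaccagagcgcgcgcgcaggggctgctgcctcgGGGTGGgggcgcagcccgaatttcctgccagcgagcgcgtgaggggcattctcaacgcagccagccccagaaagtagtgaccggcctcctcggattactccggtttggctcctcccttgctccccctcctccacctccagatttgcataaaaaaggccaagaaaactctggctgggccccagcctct
Sfrp5: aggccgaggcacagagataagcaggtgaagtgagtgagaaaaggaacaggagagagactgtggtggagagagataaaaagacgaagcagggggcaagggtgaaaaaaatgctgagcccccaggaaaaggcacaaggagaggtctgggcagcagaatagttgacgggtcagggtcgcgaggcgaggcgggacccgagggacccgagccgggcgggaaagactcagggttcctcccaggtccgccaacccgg
The search covered both strands, and the capitals in Sfrp2 are the reverse complement of CCACCC. Sfrp2, Frzb and Dkk2 each held 1 match and Sfrp5 none, while 28.1% of 32851 promoter windows of this length held at least 1. The longer Gli site GACCACCCA was found in none of the 4 windows and in 0.225% of all, and the TCF/LEF core CTTTGA was found once in Frzb and in 13.8% of all. CCACCC lies within GACCACCCA, so these searches overlap. A match describes letters and not a bound site.

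After removal of cells with more than 10% mitochondrial UMIs, 2856 control and 1792 SM22-SmoM2 cells remained, with a median of 8607.5 and 8837.5 UMIs per cell. Clusters were named from lineage markers, and the fibroblast clusters held 1090 control and 1098 SM22-SmoM2 cells. The other named lineages were Schwann cells (678 and 294), endothelial cells (605 and 221), muscle-type cells with mural markers (274 and 94), immune cells (82 and 32) and keratinocytes (16 and 1). In fibroblasts Col1a1 stood at 23235 and 15655 CPM (UMIs per 1000000 UMIs of the same cells), whereas Sox10, a defining Schwann cell gene, stood at 0.708 and 0.801 CPM. The 7 Schwann markers used for naming summed to 165 and 174 CPM in fibroblasts, against 3494 and 3068 CPM in Schwann cells. Most of the fibroblast sum was Ncam1, at 128 and 142 CPM, which was near its 165 and 171 CPM in Schwann cells. Ptch1, a transcriptional target of Hh signaling, stood at 12.2 and 147 CPM in fibroblasts. Of fibroblasts with a sex call, 74.5% of control and 94.4% of SM22-SmoM2 cells were male, so values of male cells alone were also taken. The barcode list covered the whole kit and could not be tied to the matrix columns, so barcodes shared by the libraries were not counted.

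Sfrp2, Sfrp4 and Dkk3 had their highest CPM in fibroblasts in both libraries, as did Frzb in the SM22-SmoM2 library. Fibroblasts were also nominally highest for Frzb in the control and Dkk2 in the SM22-SmoM2 library, but there the intervals overlapped those of other lineages. All levels below are UMIs summed over cells and given as CPM, with 95% intervals that cover counting error only. Sfrp2 stood at 765 CPM (751–779) in control fibroblasts, and 98.4% of its 10985 UMIs in that library were in fibroblasts. The highest other lineage was muscle at 13.8 CPM in the control library. Sfrp4 was likewise a fibroblast transcript, at 189 CPM (182–196) in control fibroblasts and at most 8.57 CPM in the Schwann, endothelial, muscle and immune lineages of that library. Dkk3 stood at 141 CPM (135–148) in control fibroblasts, followed by muscle at 22.9 CPM, and in the SM22-SmoM2 library the muscle level was 22.4 CPM. Frzb was close to absent in control fibroblasts, with 19 UMIs or 1.35 CPM, and had no UMI in 605 control endothelial cells, where the upper limit was 0.559 CPM.

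Sfrp1 and Sfrp5 had their highest CPM in Schwann cells. Sfrp1 reached 183 CPM (171–195) in control Schwann cells against 35.5 CPM in control fibroblasts, and Schwann cells held 59.7% of its UMIs in that library and 28.3% in the SM22-SmoM2 library, where fibroblasts held 70.4%. Sfrp5 in Schwann cells was at 53.1 CPM (46.7–60.1) in the control and 51.0 CPM (41.7–61.9) in the other library. Schwann cells held 91.9% of its UMIs in the first and 19.0% in the second, where fibroblasts held 80.3%. Within the lineage it was uneven, at 100.1 and 89.9 CPM in the cluster rich in Sostdc1 against 20.8 and 37.4 CPM in the Gfra3- and Fabp7-rich cluster. The order of Sfrp1 was the reverse in the control library, with 169 CPM in the first and 216 CPM in the second of these clusters. The remaining Schwann cluster, led by Crym, had Sfrp1 at 122 and 113 CPM but Sfrp5 at 3.17 and 5.48 CPM, from 2 and 3 UMIs. Dkk2 was shared by endothelial cells (34.6 CPM in control, 30.2–39.3) and fibroblasts (25.8 CPM in control, 23.2–28.6). In SM22-SmoM2 cells these levels were 29.6 CPM (22.0–38.9) and 30.3 CPM (27.3–33.5), and the intervals overlapped. Among endothelial cells, Dkk2 stood at 48.8 and 44.6 CPM in the cluster led by Cldn5 and Rbp7 and at 23.0 and 20.5 CPM in that led by Ackr1.

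**Figure D1:**
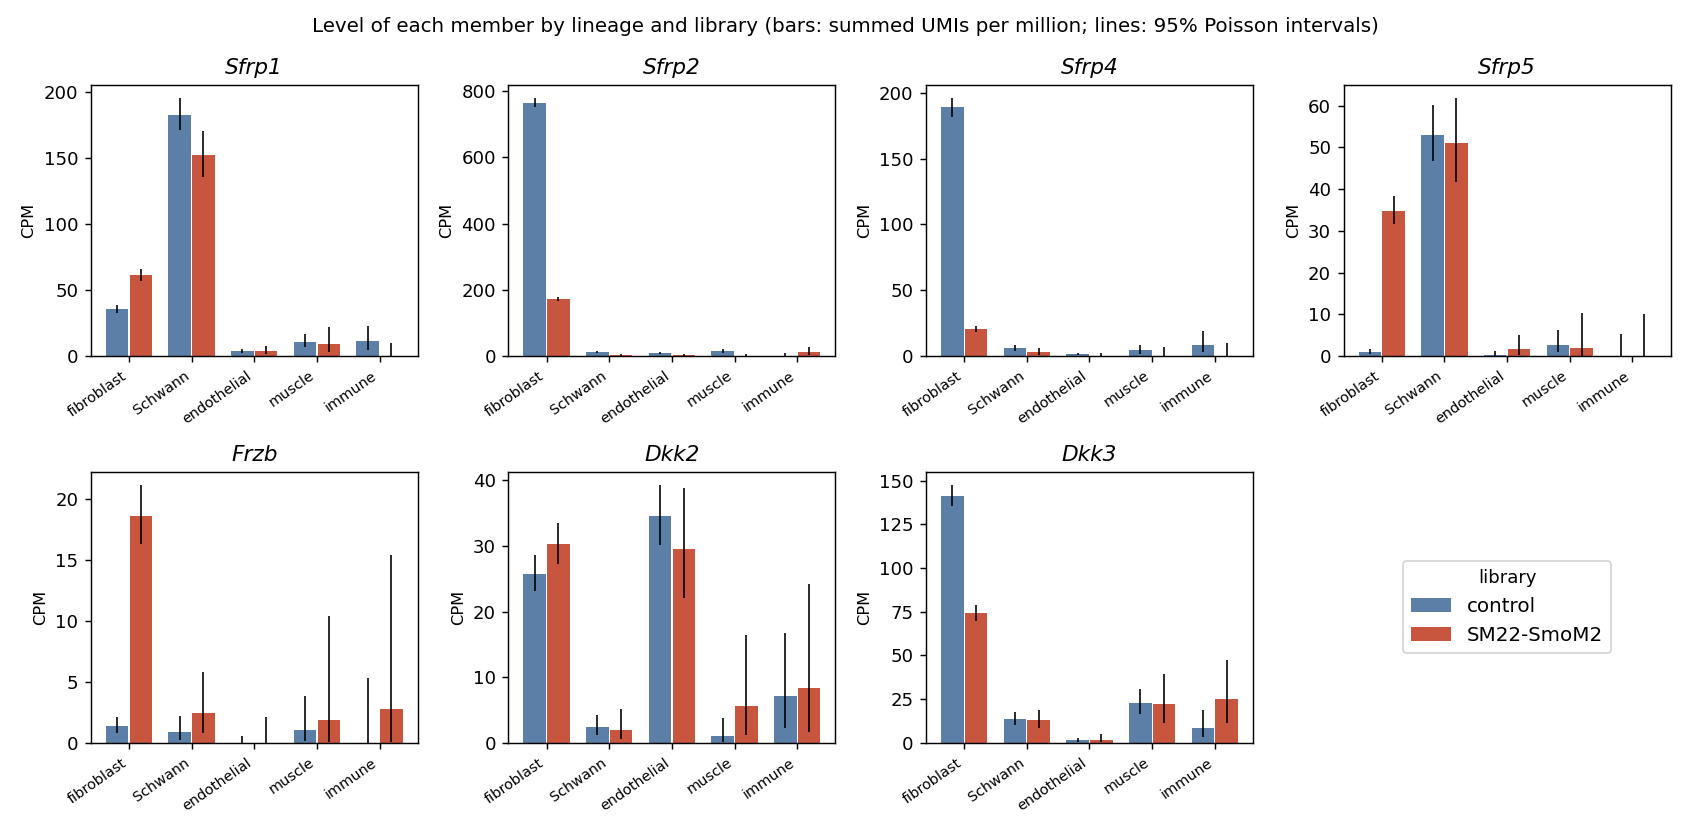
Level of each member (CPM, vertical axes from 0, one scale per gene) in 5 lineages of the control (blue) and SM22-SmoM2 (red) libraries, with bars for levels from summed UMIs and lines for 95% Poisson intervals. Sfrp2, Sfrp4 and Dkk3 stand highest in fibroblasts, Sfrp1 and Sfrp5 in Schwann cells, and Dkk2 in both fibroblasts and endothelial cells.

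Shares of cells with a UMI gave a picture similar to the CPM once every cell was thinned to 2500 UMIs, a depth that no cell fell below. Sfrp2 was detected in 46.2% of control fibroblasts (43.2–49.3) and 15.5% of SM22-SmoM2 fibroblasts (13.4–17.8), against 68.2% and 26.1% without thinning. In endothelial cells, which served as a background for free RNA, the thinned shares were 2.64% and 1.36%. Median depth before thinning was 12489.5 and 10947.5 UMIs in fibroblasts and 8740 and 6192 UMIs in endothelial cells. Sfrp5 was found in 0 of 1090 control fibroblasts (upper limit 0.338%) and in 3.46% (2.46–4.72) of SM22-SmoM2 fibroblasts, against 0 and 0.452% of endothelial cells. Frzb was found in 0.367% and 5.01% of fibroblasts, and in no endothelial cell of either library. Sfrp1 was found in 9.08% of control and 12.9% of SM22-SmoM2 fibroblasts. Shares of Sfrp4 were 18.6% and 2.64%, and those of Dkk3 27.7% and 16.8%. For Dkk2 the shares were 4.77% (3.58–6.21) and 6.47% (5.08–8.09), and the intervals overlapped. A control fibroblast held 1.07 members on average at this depth and an SM22-SmoM2 fibroblast 0.628, and the share with none was 27.6% and 51.3%.

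The fibroblasts of the 2 libraries held the antagonists in different proportions. Summed over all 7 members, control fibroblasts stood at 1159 CPM (1141–1176) and SM22-SmoM2 fibroblasts at 412 CPM (400.5–423) (log2 ratio -1.49, -1.54 to -1.45). Most of the difference was in Sfrp2, whose part of the members' UMIs was 66.0% in control and 41.8% in SM22-SmoM2 fibroblasts. Reading UMIs of different genes together assumes equal capture, since these counts come from 3′ ends and carry no gene length. Sfrp2 stood at 765 CPM from 10804 UMIs in control fibroblasts and 172 CPM from 2148 UMIs in SM22-SmoM2 fibroblasts, 4.44-fold lower (log2 ratio -2.15, -2.22 to -2.08). Sfrp4 went from 189 CPM to 20.4 CPM, 9.24-fold lower, with 2667 and 255 UMIs (log2 ratio -3.21, -3.40 to -3.02). Both differences were larger than counting error over all fibroblasts. They were smaller in the mean over the Mmp3-led and Crabp1-led sub-clusters described further on. These were the 2 to which both libraries gave 50 cells or more. Their SM22-SmoM2 cells were low in Ptch1, at 10.95 and 17.97 CPM, against 147 CPM over all fibroblasts of that library. The mean thus covers SM22-SmoM2 cells with little of this Hh target. The mean log2 ratio was -0.70 for Sfrp2 and -0.077 for Sfrp4, and it averaged values of opposite sign. Sfrp2 was at 0.43 in Mmp3-led and -1.82 in Crabp1-led cells, so it was 2-fold lower in the latter. Sfrp4 was at 1.84 and -1.99, the latter from 20 and 2 UMIs. Sfrp5 was opposite, with 13 UMIs in control fibroblasts (0.920 CPM) and 435 UMIs in SM22-SmoM2 fibroblasts (34.9 CPM), 37.9-fold higher (log2 ratio 5.24, 4.45 to 6.16). Frzb was 13.8-fold higher, at 1.35 and 18.6 CPM from 19 and 232 UMIs (log2 ratio 3.79, 3.11 to 4.55).

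The other 3 members differed by less than 2-fold. Sfrp1 stood at 35.5 and 61.2 CPM (log2 ratio 0.79, 0.62 to 0.95), Dkk3 at 141 and 74.1 CPM (-0.93, -1.05 to -0.82) and Dkk2 at 25.8 and 30.3 CPM (0.23, 0.02 to 0.44). The sign for Dkk2 turned under other settings, to -0.37 with cells thinned to 1500 UMIs and to -0.20 without the Cldn1-led sub-cluster described further on, so no direction is given for it. Over all fibroblasts, 2 members were thus at least 2-fold higher and 2 at least 2-fold lower in the SM22-SmoM2 library, where 5.01% of 11525 genes with at least 50 UMIs were 2-fold higher and 4.91% lower, with a median log2 ratio of -0.06 over all of them. All 7 members passed the minimum of 50 UMIs, which was taken over both libraries together for members and for all genes. The 2 members called higher passed it only through the SM22-SmoM2 library, as Sfrp5 had 13 and Frzb 19 control UMIs. The mean over the 2 shared sub-clusters was under 2-fold for both members called lower, although Sfrp2 was 2-fold lower in the Crabp1-led cells. It gave no value for the members called higher, Sfrp5 and Frzb. In Schwann cells Sfrp1 was slightly lower in the SM22-SmoM2 library, at 152 against 183 CPM (log2 ratio -0.26, -0.46 to -0.08), and Sfrp5 differed by less than counting error (-0.06, -0.40 to 0.28). Dkk2 in endothelial cells and Dkk3 in muscle also differed by less than counting error, with log2 ratios of -0.22 (-0.69 to 0.22) and -0.03 (-1.09 to 0.92). Sfrp2 counts in Schwann and endothelial cells were also lower in the SM22-SmoM2 library, at 60 and 7 UMIs and 61 and 3 UMIs. A single control Schwann cell held 26 of the 60 and a single control endothelial cell 13 of the 61. Endothelial cells served above as a background for free RNA, and whether these counts came from the cells themselves was not tested. Of the members with 50 UMIs in a lineage, 1 of 4 in Schwann cells and 1 of 2 in endothelial cells was thus 2-fold lower, in each case Sfrp2, and none was 2-fold higher. Of all genes 1.85% were lower and 1.17% higher in Schwann cells, and 2.31% and 0.680% in endothelial cells. In muscle only Dkk3 passed, within 2-fold, beside 3.27% of genes lower and 0.907% higher, and in immune cells no member passed (6.60% of genes lower and 2.90% higher).

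Fibroblasts were divided further into 13 sub-clusters, which are called here by their leading genes and were made without the members among the clustering genes. Sfrp2 and Sfrp4 stood highest together in 3 sub-clusters made up almost wholly of control cells. The sub-cluster led by Dlk1, Nov and Pamr1, with 247 control and 4 SM22-SmoM2 cells, held Sfrp2 at 1340.25 CPM and Sfrp4 at 448 CPM. In the one led by C4b, Gdf10 and Saa3, with 61 control and 5 SM22-SmoM2 cells, Sfrp2 reached 1569 CPM and Sfrp4 773 CPM. The cycling sub-cluster led by Ccnb1, with 48 control and 3 SM22-SmoM2 cells, held 1029 and 384 CPM. Wnt2, a Wnt ligand, was at 259, 121 and 203 CPM in the same control cells. Of all Sfrp4 UMIs in control fibroblasts, 62.7% were in the Dlk1-led sub-cluster, which held 22.7% of the cells. Leaving the Dlk1-led sub-cluster out brought the log2 ratio between the libraries to -1.73 for Sfrp2 and -2.26 for Sfrp4. Of control cells with a sex call, 194 of 197 Dlk1-led, 41 of 42 Ccnb1-led and 25 of 50 C4b-led cells were male. Each library pooled several mice, and how many of them gave these cells was not tested.

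In SM22-SmoM2 fibroblasts, Sfrp2 was mainly found in the sub-cluster led by Mmp3, Ctla2a and Mmp13. There it stood at 940.5 CPM, and 68.0% of the library's fibroblast Sfrp2 UMIs came from these 126 cells, 11.5% of its fibroblasts. In the sub-clusters led by Penk and by Egfl6, which were nearly all SM22-SmoM2 cells, Sfrp2 was at 7.74 and 9.51 CPM. Low Sfrp2 was not a property of SM22-SmoM2 cells alone, since the control sub-cluster led by Cst6, Trf and Gcg had 2 UMIs of Sfrp2 in 60 cells (2.97 CPM) and Wif1 at 378 CPM. Wif1 is a secreted antagonist that binds Wnt ligands, and SM22-SmoM2 sub-clusters with low Sfrp2 had it at 254 CPM (Cldn1-led), 449 CPM (Penk-led) and 659 CPM (Egfl6-led). Low Sfrp2 did not always go with high Wif1. Control Cldn1-led cells had Sfrp2 at 14.1 and Wif1 at 5.63 CPM, and control cells led by Agtr2 had them at 78.5 and 1.17 CPM. All 47 sexed control cells of the Cst6-led and all 60 of the Agtr2-led sub-cluster were male. How many mice gave them was not tested.

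Most Sfrp5 was in a single sub-cluster. Cells led by Cldn1, a tight junction gene, with Ccdc3 and Mest held 371 of the 435 Sfrp5 UMIs of SM22-SmoM2 fibroblasts, or 85.3% (81.6–88.5), in 15.8% of the cells. Their level was 181 CPM in 173 SM22-SmoM2 cells, while 36 control cells of the same sub-cluster had 1 UMI, or 2.82 CPM. Sfrp1 was also highest here among SM22-SmoM2 sub-clusters of 20 or more cells, at 156 CPM, and control cells had it at 110 CPM. Sfrp4 stood at 68.7 CPM, or 55.3% of its UMIs in SM22-SmoM2 fibroblasts, and Dkk2 at 67.3 CPM against 2.82 CPM in control cells. Sfrp1 and Sfrp5, the 2 Sfrp genes found in Schwann cells, thus stood high together in the SM22-SmoM2 cells of this sub-cluster. They stood apart in others. C4b-led control cells had Sfrp1 at 126 CPM and 0 Sfrp5 UMIs, and Ibsp-led SM22-SmoM2 cells had them at 90.9 and 12.5 CPM. Of the 7 Schwann markers, 5 were detected in the 173 Cldn1-led SM22-SmoM2 cells. Their sum was 76.1 CPM, against 3068 CPM in SM22-SmoM2 Schwann cells. The defining marker Sox10 had no UMI. The 7 endothelial markers summed to 147 CPM, of which Cdh5 made 101 CPM and Pecam1 14.1 CPM, against 5790.4 CPM for the sum in endothelial cells of the library. Under a mitochondrial limit of 5%, 161 of the 209 Cldn1-led cells were placed in sub-clusters led by markers of another lineage and left out. The Sfrp5 log2 ratio was then 2.80, and it was 2.82 when the Cldn1-led sub-cluster alone was left out.

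Frzb marked other SM22-SmoM2 cells. It reached 110 CPM in the 47 cells led by Ibsp, Cd24a and Bmp4, 63.2 CPM in the Egfl6-led sub-cluster, 31.6 CPM in a cycling sub-cluster led by Gm26870 and Ube2c (here Ube2c-led) and 22.1 CPM in the Penk-led sub-cluster. In the Cldn1-led cells it had 1 UMI. The Ibsp-led cells, all from the SM22-SmoM2 library, also had the highest Alpl, which encodes the alkaline phosphatase used to stain dermal papillae, at 345 CPM, and Lef1 at 125 CPM. Their median depth was 4636 UMIs, the lowest of any sub-cluster of 20 or more cells. Sfrp1 was at 90.9 CPM and Sfrp2 at 37.6 CPM in these cells. Dkk2 peaked elsewhere, at 131 CPM in 84 control cells led by Agtr2, Angptl1 and Fbln7, a sub-cluster without SM22-SmoM2 cells. Dkk3 was detected in every sub-cluster, between 50.9 and 219 CPM over control sub-clusters and between 34.5 and 120 CPM over SM22-SmoM2 sub-clusters with at least 20 cells.

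**Figure D2:**
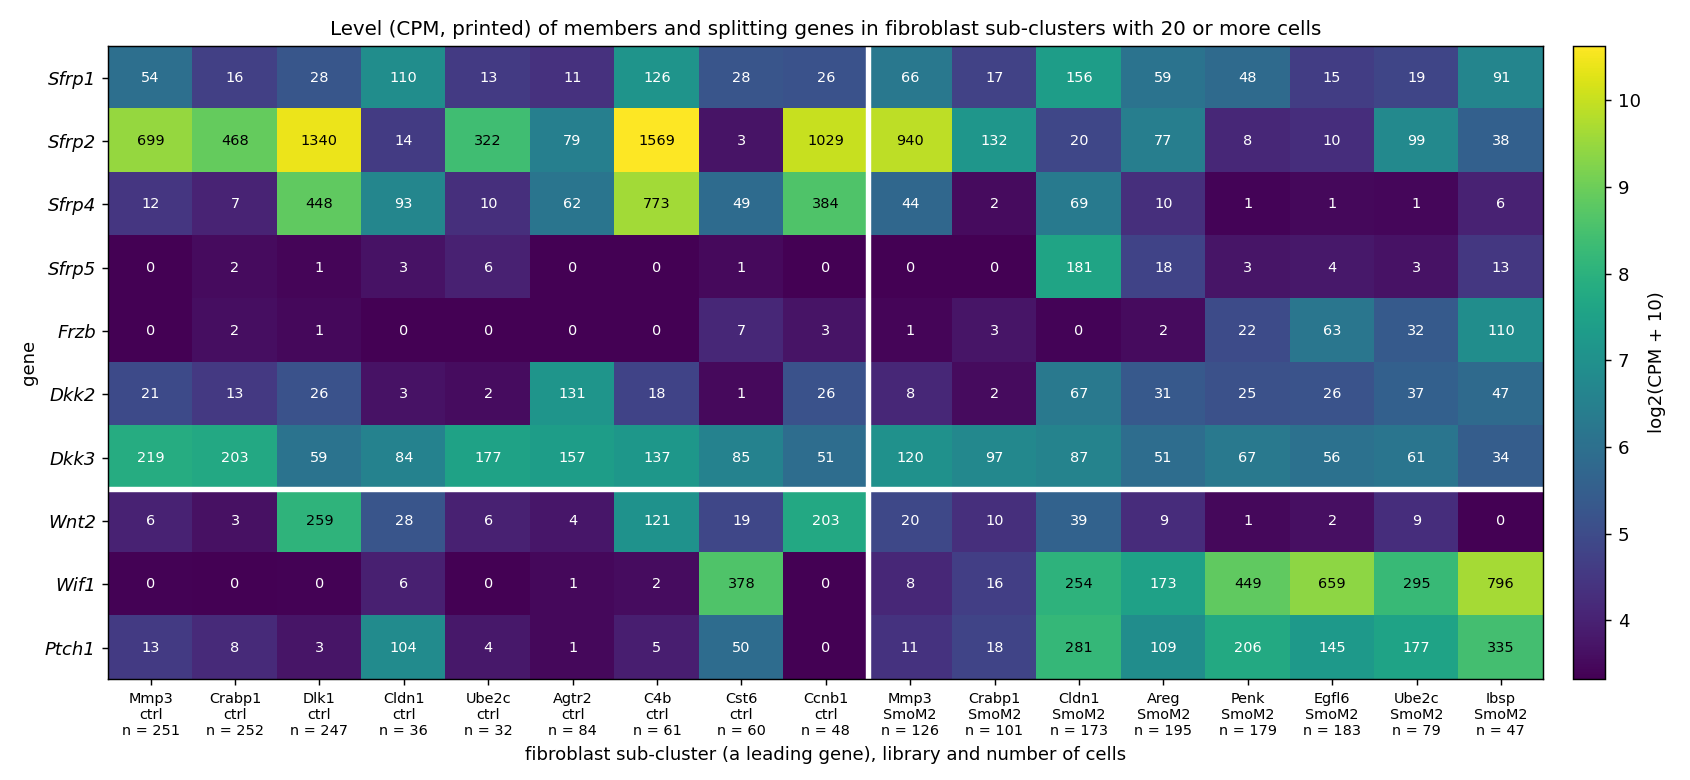
Heat map of 7 members and of Wnt2, Wif1 and Ptch1 (rows) over fibroblast sub-clusters with at least 20 cells, named by a leading gene, control on the left and SM22-SmoM2 on the right. Each cell prints the CPM and is coloured by log2(CPM + 10), and Sfrp5 stands out at 181 CPM in Cldn1-led SM22-SmoM2 cells, where Frzb is near 0.

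For 4 sub-clusters each library gave 20 cells or more, which allowed a comparison within sub-clusters, though not always of like cells. With the control library first, Ptch1 stood at 3.84 and 177 CPM in Ube2c-led cells and at 104 and 281 CPM in Cldn1-led cells. Wif1 stood at 0 and 295 CPM in the former and at 5.63 and 254 CPM in the latter. Ptch1 was low in both libraries in Mmp3-led cells (13.49 and 10.95 CPM) and Crabp1-led cells (8.14 and 17.97 CPM). The part of these differences in the ratios was not tested. In the Mmp3-led sub-cluster, with 251 control and 126 SM22-SmoM2 cells, Sfrp2 was higher in the SM22-SmoM2 library, at 940.5 against 699.3 CPM (log2 ratio 0.43, 0.33 to 0.52). Sfrp4 was also higher there, at 43.8 against 12.2 CPM (log2 ratio 1.84, 1.25 to 2.45). Both signs were the reverse of those over all fibroblasts. In the Crabp1-led sub-cluster Sfrp2 was lower in the SM22-SmoM2 library, at 132 against 468 CPM (log2 ratio -1.82, -2.07 to -1.59), as it was in the Ube2c-led cycling cells at 99.4 against 322 CPM (-1.70, -2.06 to -1.34). Sfrp2 in the Cldn1-led cells was low in both, with 5 and 40 UMIs. Dkk3 was lower in the SM22-SmoM2 cells of the Mmp3-led, Crabp1-led and Ube2c-led sub-clusters, with log2 ratios of -0.87, -1.07 and -1.53, but not in the Cldn1-led cells (0.04, -0.53 to 0.65). Dkk2 went in both directions, from 21.3 to 7.73 CPM in Mmp3-led cells (log2 ratio -1.46, -2.49 to -0.57) and from 2.82 to 67.3 CPM in Cldn1-led cells (4.58, 2.08 to 9.89), the latter against a single control UMI. The shares of male cells in the Mmp3-led sub-cluster were unequal, with 108 of 198 sexed control cells and 87 of 95 SM22-SmoM2 cells. The same held for Crabp1-led cells, with 126 of 203 and 69 of 71, and for Ube2c-led cells, with 16 of 27 and 56 of 62. Cldn1-led cells had 20 of 23 and 139 of 142. The part of these shares in the results was not tested.

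**Figure D3:**
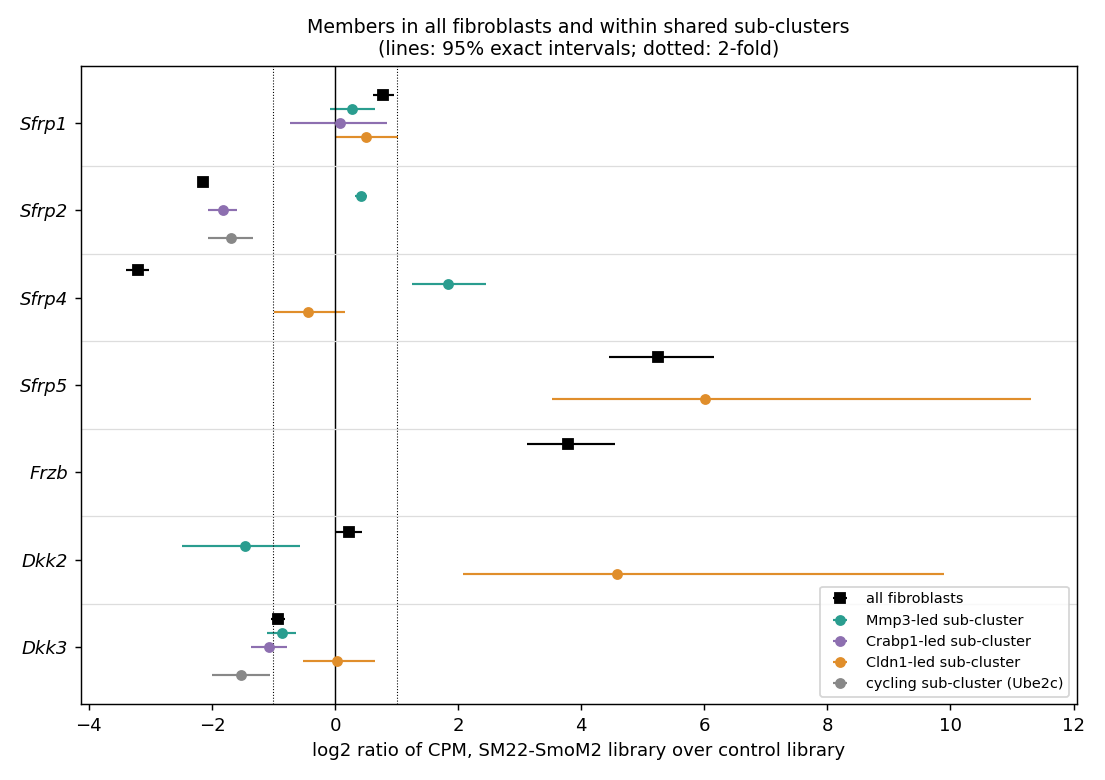
Log2 ratio of CPM, SM22-SmoM2 over control, for each member in all fibroblasts (black squares) and within sub-clusters with at least 20 cells per library and 50 UMIs of the gene (coloured circles). Lines are 95% exact intervals and dotted lines mark 2-fold, and Sfrp2 lies at -2.15 over all fibroblasts but at 0.43 in the Mmp3-led sub-cluster.

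Detection of Wnt2 divided the fibroblasts by Sfrp2 and Sfrp4. A Wnt2 UMI was found in 318 of 1090 control fibroblasts (29.2%) and 105 of 1098 SM22-SmoM2 fibroblasts (9.56%), and such cells were deeper, with a median of 15231 and 14022 UMIs against 11692 and 10499 UMIs. In control fibroblasts Sfrp2 stood at 1285 CPM with Wnt2 and 473 CPM without (log2 ratio 1.44, 1.39 to 1.497), and Sfrp4 at 397 and 71.6 CPM (2.47, 2.34 to 2.60). Dkk3 was opposite, at 71.7 and 181 CPM (log2 ratio -1.33, -1.50 to -1.17). Of the 5 members with at least 50 UMIs in control fibroblasts, 2 were therefore 2-fold higher and 1 lower, against 5.05% and 5.49% of 10261 genes. In SM22-SmoM2 fibroblasts Sfrp4 was at 107 CPM with Wnt2 and 8.15 CPM without (log2 ratio 3.71, 3.33 to 4.10), Sfrp5 at 65.6 and 30.5 CPM (1.11, 0.77 to 1.43) and Frzb at 2.57 and 20.9 CPM (-3.02, -4.91 to -1.64). Sfrp2 differed by less than 2-fold in this library, at 282 and 156 CPM (0.85, 0.70 to 1.00). There 2 of 7 members were 2-fold higher and 1 lower, against 1.77% and 4.48% of 10042 genes. The value for Sfrp5 turned to -1.66 (-4.74 to 0.26) under the mitochondrial limit of 5%. After thinning to 2500 UMIs, Sfrp4 was detected in 44.2% of control fibroblasts with Wnt2 and 14.4% without, and in 21.4% and 2.15% of SM22-SmoM2 fibroblasts.

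This relation was partly one of sub-clusters and partly not. Within the Dlk1-led control cells, Sfrp4 was at 441 CPM in 208 cells with Wnt2 and 498 CPM in 39 without (log2 ratio -0.18, -0.38 to 0.03), so it did not differ beyond counting error. Nor did it in the C4b-led control cells, at 738 and 807 CPM (-0.13, -0.41 to 0.15). In the SM22-SmoM2 library it differed within both sub-clusters that could be divided, at 160 against 17.4 CPM in Mmp3-led cells (log2 ratio 3.20, 2.44 to 4.01) and 179 against 24.6 CPM in Cldn1-led cells (2.87, 2.31 to 3.46). Sfrp5 in the Cldn1-led cells was at 171 and 185 CPM with and without Wnt2, a difference within counting error (-0.12, -0.46 to 0.22). For Sfrp2 the log2 ratio by Wnt2 was 2.76 (2.49 to 3.05) in C4b-led and 0.33 (0.20 to 0.46) in Dlk1-led control cells. In SM22-SmoM2 cells it was 1.76 (0.79 to 2.75) in Cldn1-led cells, from 40 UMIs in all, and 0.13 (-0.06 to 0.32) in Mmp3-led cells, which held most of that library's fibroblast Sfrp2. These comparisons within sub-clusters were added after the pooled values had been seen.

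Wif1 detection gave the reverse pattern for Sfrp2. A Wif1 UMI was present in 46 control fibroblasts (4.22%) and 620 SM22-SmoM2 fibroblasts (56.5%), whose median depth was 11250 and 10711 UMIs against 12554.5 and 11173.5 UMIs in the others. Sfrp2 stood at 84.5 CPM with Wif1 and 790 CPM without in the control library (log2 ratio -3.22, -3.70 to -2.79), and at 35.03 and 359 CPM in the SM22-SmoM2 library (-3.36, -3.55 to -3.17). Among thinned cells, Sfrp2 was found in 0 of 26 Wif1-positive control fibroblasts (0–13.2) and in 47.4% of 1064 others, and in 5.49% and 21.2% of SM22-SmoM2 fibroblasts. Frzb was the 1 member at least 2-fold higher with Wif1 in SM22-SmoM2 fibroblasts, at 29.1 against 4.35 CPM (log2 ratio 2.74, 2.11 to 3.43). Its share of thinned cells was 10.47% with Wif1 and 1.87% without. In the control library 3 of 5 members (Sfrp2, Sfrp4 and Dkk2) were 2-fold lower with Wif1, against 12.4% of 10261 genes, and none was 2-fold higher, against 7.69%. The Dkk2 call rested on 5 UMIs in cells with Wif1. Of the 46 control cells with Wif1, 36 were in the Cst6-led sub-cluster. There Sfrp2 had 1 UMI with and 1 without Wif1, and Dkk2 had 0 and 1. Sfrp4 stood at 42.4 and 58.6 CPM in these cells (-0.47, -1.54 to 0.61). The control split by Wif1 was thus largely a split between sub-clusters. In the SM22-SmoM2 library 1 of 7 was 2-fold higher and 1 lower, against 2.72% and 2.86% of genes. Mmp3-led cells held 68.0% of the Sfrp2 UMIs of SM22-SmoM2 fibroblasts, with Wif1 at 7.73 CPM. The pooled Sfrp2 ratio of this library thus also held a split between sub-clusters. Within sub-clusters Sfrp2 was at -1.85 (-2.88 to -0.87) by Wif1 in Cldn1-led and -4.57 (-6.22 to -3.30) in Ube2c-led cells. In Penk-led cells it was within counting error (-1.29, -3.02 to 0.64). Within the Areg-led SM22-SmoM2 cells, Sfrp2 was at 22.3 CPM in 107 cells with Wif1 and 157 CPM in 88 without (-2.81, -3.40 to -2.26), and in Penk-led cells Frzb was at 26.5 CPM in 140 cells and 2.98 CPM in 39 (3.15, 0.59 to 8.49).

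Ptch1, which reads Hh activity, was detected in 108 control fibroblasts (9.91%) and 640 SM22-SmoM2 fibroblasts (58.3%), with a median of 12888 and 11298 UMIs against 12470 and 10218 UMIs in the others. Sfrp2 was lower with Ptch1 in both libraries, at 259 against 823 CPM in control (log2 ratio -1.67, -1.82 to -1.52) and 42.5 against 377 CPM in SM22-SmoM2 fibroblasts (-3.15, -3.32 to -2.98). Sfrp4 was lower as well, with log2 ratios of -1.27 (-1.54 to -1.002) and -1.06 (-1.43 to -0.69). At full depth, 427 Sfrp5 UMIs were in SM22-SmoM2 fibroblasts with Ptch1 and 8 in those without, or 55.9 and 1.65 CPM (log2 ratio 5.08, 4.09 to 6.30). At 2500 UMIs per cell, 18 cells with Sfrp5 had a Ptch1 UMI and 20 had none, which is 5.79% of cells with Ptch1 and 2.54% of those without. Dkk2 was at 42.0 and 11.8 CPM (log2 ratio 1.83, 1.42 to 2.27) in SM22-SmoM2 fibroblasts and at 17.3 and 26.7 CPM in control fibroblasts (-0.63, -1.28 to -0.05), where it turned to 0.93 (-0.98 to 2.36) with cells thinned to 2500 UMIs. Sfrp2 and Sfrp4 were 2-fold lower in control fibroblasts with Ptch1, 2 of 5 members, against 3.64% of genes, and 0 were 2-fold higher, against 2.57%. In SM22-SmoM2 fibroblasts 2 of 7 members were higher and 2 lower, against 3.50% and 1.99% of genes. With cells thinned to 1500 UMIs 1 of these 4 calls remained, Sfrp2, as Sfrp5 was then at 0.49 (-0.46 to 1.37) and Sfrp4 and Dkk2 no longer reached 50 UMIs.

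The Sfrp2 difference by Ptch1 was also seen within some sub-clusters but not in others. The pooled values also held differences between sub-clusters. Mmp3-led cells held 68.0% of the Sfrp2 UMIs of SM22-SmoM2 fibroblasts, with Ptch1 at 10.95 CPM. Dlk1-led cells held 46.3% of those of control fibroblasts, with Ptch1 at 3.21 CPM. In Mmp3-led control cells Sfrp2 was at 262 CPM in 29 cells with Ptch1 and 762 CPM in 222 without (log2 ratio -1.54, -1.84 to -1.26). In the SM22-SmoM2 library it was at 42.4 and 137 CPM in Areg-led cells (-1.69, -2.14 to -1.25) and at 21.2 and 327 CPM in Ube2c-led cycling cells (-3.95, -4.79 to -3.19). In Cldn1-led SM22-SmoM2 cells, Sfrp2 was low with and without Ptch1, at 19.3 and 21.03 CPM. Sfrp5 in these cells was at 197 CPM in 149 cells with Ptch1 and 26.3 CPM in 24 without (2.90, 1.67 to 4.53), and Sfrp4 at 48.9 and 263 CPM (-2.43, -2.94 to -1.90). In the Areg-led sub-cluster 43 of 44 Sfrp5 UMIs were in cells with Ptch1, which were 110 cells against 85 without. These values are at full depth. The 435 Sfrp5 UMIs of all SM22-SmoM2 fibroblasts lay in 76 cells, with up to 34 in 1 cell.

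**Figure D4:**
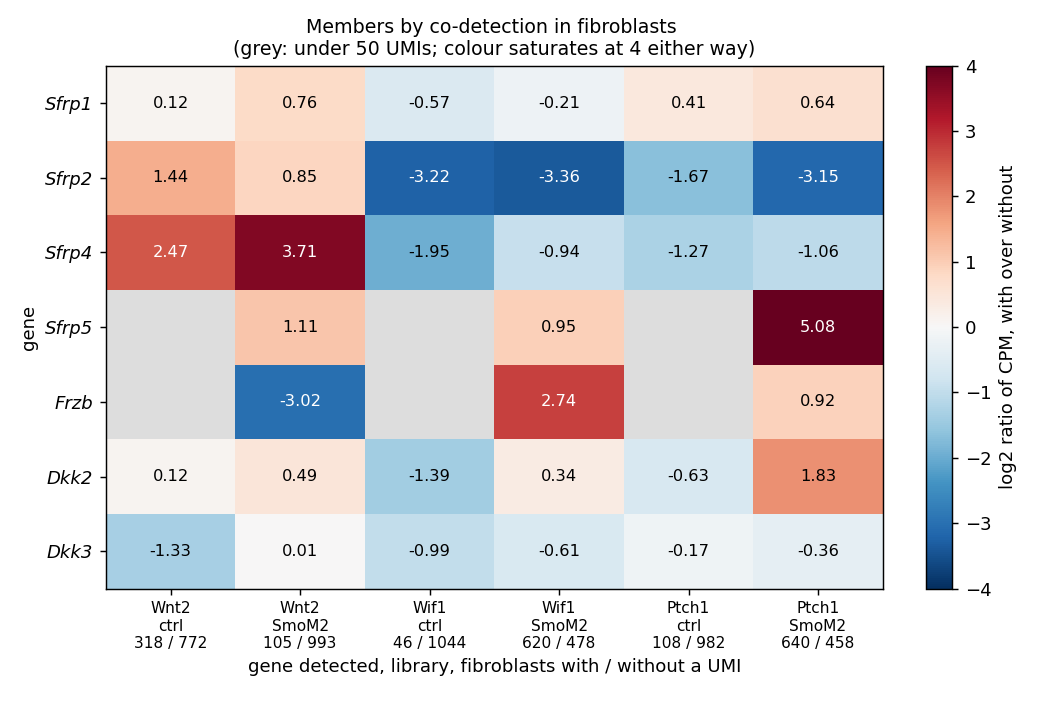
Log2 ratio of CPM between fibroblasts with and without a UMI of Wnt2, Wif1 or Ptch1 in each library, for each member, with the numbers of cells with and without a UMI under each column. Red is higher and blue lower with the gene, grey marks members with under 50 UMIs, and Sfrp2 is lower with Wif1 or Ptch1 and higher with Wnt2 in both libraries.

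Joint detection differed between pairs of members. At 2500 UMIs per cell, Sfrp2 was detected in 170 and Sfrp5 in 38 SM22-SmoM2 fibroblasts, and no cell held both (0–9.25% of the 38), against 16.04% of cells without Sfrp5 that held Sfrp2. Frzb was detected in 55 cells, of which 3 held Sfrp2, or 5.45% (1.14–15.1) against 16.01% of cells without Frzb. None of the 55 held Sfrp5 (0–6.49%), against 3.64% of the other cells, a difference not detectable at this depth. By contrast, 24 of the 38 cells with Sfrp5 also held Sfrp1, or 63.2% (46.0–78.2), against 11.1% (9.30–13.2) of cells without Sfrp5. At full depth Sfrp1 was at 203 CPM in 76 SM22-SmoM2 fibroblasts with Sfrp5 and 49.5 CPM in the others (log2 ratio 2.04, 1.80 to 2.28). The Cldn1-led sub-cluster held 85.3% of the Sfrp5 UMIs of these fibroblasts, and there Sfrp1 stood at 156 and Sfrp2 at 19.5 CPM. Joint detection of these pairs within that sub-cluster was not tested. In control fibroblasts, 124 of 203 cells with Sfrp4 also held Sfrp2 (61.1%), against 42.8% of cells without Sfrp4, and 106 of 154 cells with Wnt2 held Sfrp2 (68.8%).

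The genes whose levels were most like those of each member were sought over 25 classes of at least 20 cells, formed by lineage or sub-cluster and library, among 12016 genes with at least 100 UMIs. Pearson's r of log2(CPM + 10) is given as a description, since classes of 1 library share its preparation. Sfrp2 was most like the overlapping Gm26771 (0.94), the collagen prolyl hydroxylase gene P4ha3 (0.90) and Dpt (0.89), which encodes the matrix protein dermatopontin. Sfrp4 was most like Wnt2 (0.92), Pi16 (0.91) and Tnxb (0.91). Sfrp5 followed Paqr6 (0.91), Nkain4 (0.83) and Fam78b (0.80), and Sfrp1 followed Entpd2 (0.86), Fxyd1 (0.80) and the Schwann cell gene S100b (0.79). For Frzb the nearest genes were Cpne5 (0.91), Fgf10 (0.91) and 1190005I06Rik (0.90), where Fgf10 encodes a growth factor and was among the dermal papilla markers used for naming. Dkk3 was near the matrix genes Mfap2 (0.95) and Itgbl1 (0.94) and the protease gene Ctsk (0.95), while Dkk2 had no close match (Galt 0.70, Dcaf6 0.68, Tcf7l2 0.68). Between members, r was highest for Sfrp2 with Dkk3 (0.66), followed by Sfrp1 with Sfrp5 (0.64) and Sfrp2 with Sfrp4 (0.62), and was -0.29 for Sfrp2 with Sfrp5.

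Other genes of the Wnt pathway were taken from a list of 67, of which 43 had at least 50 UMIs in fibroblasts. In the SM22-SmoM2 library 12 of these were at least 2-fold higher, 2 lower and 29 within 2-fold, against 5.01% of 11525 genes higher and 4.91% lower. Their median log2 ratio was 0.32, beside -0.06 over all 11525 genes. The list was chosen with earlier results of these data known, so these counts are not a test of the pathway. Of the 12 genes called higher, Dkk1, Sost, Lef1, Tcf7, Rspo1 and Fzd5 reached 50 UMIs only through the SM22-SmoM2 library. Among 7 further antagonists and modulators that passed, 4 were higher. Wif1 went from 21.5 to 288 CPM (log2 ratio 3.74, 3.57 to 3.92), Dkk1, which blocks LRP5 and LRP6, from 3 to 198 UMIs, and Igfbp4 from 638 to 2690.5 CPM (2.08, 2.04 to 2.11). Sost, another inhibitor at LRP5 and LRP6, had 0 control UMIs and 116 SM22-SmoM2 UMIs, a log2 ratio of at least 5.45 when 3 UMIs over the control fibroblasts stand for 0. Sostdc1, Kremen1 and Tpbg were within 2-fold. The R-spondin system, which strengthens Wnt signals, had Rspo1 (2.02), Rspo3 (2.64) and the receptor Lgr4 (1.77) higher on the log2 scale, whereas Lgr5 was at -0.37. Targets and nuclear factors with higher levels were Nkd1 (1.04), Lef1 (5.85, from 1 to 51 UMIs), Tcf7 (2.92) and Tcf7l2 (1.06), and Axin2, a direct target, was at 0.41 (0.03 to 0.79). Both genes that were lower are ligands, Wnt2 (-2.72, -2.96 to -2.49) and Wnt16 (-2.09, -2.52 to -1.67), and the other 7 ligands that passed were within 2-fold, among them Wnt5a (0.05, -0.10 to 0.20). Of 8 Frizzled genes only Fzd5 was higher (2.02), and all 5 co-receptors were within 2-fold.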

How the data were processed

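Tomato+ dermal cells of healed wounds were profiled with 10x Chromium v2 3′ kits in 1 control and 1 SM22-SmoM2 library. The deposited matrices hold unnormalized UMI counts, whole numbers, which the authors made with bcl2fastq and Cell Ranger against mm10. The Cell Ranger version, annotation and strand counted are not given in the sources used here. The labels and the study's methods differ in the length of the EDTA step.

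Cells with under 200 genes or over 10% mitochondrial UMIs were left out. Counts were scaled to 10000 UMIs, log-transformed and reduced to 20 principal components from the 2000 most variable genes, on which k-means was run with 50 starts (K = 20 for all cells and 15 for fibroblasts, scikit-learn 1.9.0). The members and other reported genes, 78 in all, were kept out of clustering. Lineage names rested on at least 3 raised markers, each reaching 10 CPM and 1.5 times its median over clusters. A cluster in which endothelial and mural markers were mixed stayed unnamed (96 and 49 cells), 61 cells with dermal papilla markers were counted with fibroblasts, and mixed fibroblast sub-clusters (15 and 3 cells) were left out. Doublets were kept, as Scrublet called 5 of 2878 control and 11 of 1802 SM22-SmoM2 barcodes.

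UMIs were summed per class and library, divided by the class total (CPM), and compared as log2 ratios with exact conditional intervals. Levels have Poisson and shares Clopper-Pearson intervals (scipy 1.17.1), all at 95% and for counting error only. A count of 0 was replaced by 3 UMIs as a bound. Calls needed 50 UMIs and a 2-fold difference. With 1 library per genotype no p-value was computed. Named genes were the members, Wnt2, Wif1 and Ptch1, pathway genes 2-fold apart with at least 50 UMIs, and the 3 most alike genes of each member. Markers and genes beyond this rule that the text names were chosen after values were seen. The members and lists were chosen with earlier results of these data known. Of 27998 gene IDs, 27645 were found in GENCODE M21, which gave the positions. The calculation was tested on simulated Poisson counts, the model that the intervals assume. This could not show how the intervals hold where UMIs clump in single cells or libraries vary. Alternatives covered the mitochondrial limit, doublet calls (Scrublet in scanpy 1.11.5), clustering, depth by thinning cells to 2500 or 1500 UMIs, cells called male, and the thresholds.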

Additional observations from a re-analysis of the deposited data

Results flagged for a closer look

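Sfrp1 differed between the libraries in opposite directions in 2 lineages, with a log2 ratio of SM22-SmoM2 to control of 0.79 (0.62 to 0.95) in fibroblasts and -0.26 (-0.46 to -0.08) in Schwann cells. Sfrp2 did so between fibroblast sub-clusters, at 0.43 in Mmp3-led cells against -1.82 in Crabp1-led and -1.70 in Ube2c-led cycling cells. Ptch1 in the SM22-SmoM2 cells of these sub-clusters stood at 10.95, 17.97 and 177 CPM, in that order. Dkk2 stood at -1.46 in Mmp3-led and 4.58 in Cldn1-led cells, the latter from 1 control UMI and 138 SM22-SmoM2 UMIs. These members were picked because the intervals on both sides left out 0 and the sub-cluster values rested on at least 50 UMIs. The intervals cover counting error only, and with 1 library per genotype the difference itself was not tested.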

How the results depend on the processing

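All values here are log2 ratios of SM22-SmoM2 to control fibroblasts unless stated. Dkk2 changed sign under some settings, and the other 6 members kept their direction under every setting that gave a value. With a mitochondrial limit of 5%, Sfrp1 was 0.36, Sfrp2 -1.98, Sfrp4 -3.88, Sfrp5 2.80, Dkk2 -0.054 and Dkk3 -1.07, and 161 of 209 Cldn1-led and 98 of 251 Dlk1-led cells then lay in mixed sub-clusters that were left out. Leiden clustering gave Sfrp1 0.95 and Sfrp2 -2.25. Thinning to 2500 UMIs gave Sfrp1 0.61 and Sfrp2 -2.003, and thinning to 1500 UMIs gave Sfrp1 0.61 and Dkk2 -0.37. In male cells alone Sfrp2 was -2.22, Sfrp5 6.86 and Dkk2 0.45. The mean over sub-clusters shared by both libraries was 0.18 for Sfrp1, -0.70 for Sfrp2, -0.077 for Sfrp4 and -2.23 for Dkk2, and it gave no value for Sfrp5 and Frzb. The shared sub-clusters were low in Ptch1 in both libraries. Leaving out each of the 13 sub-clusters in turn, a choice made after seeing the data, gave 0.34 to 1.01 for Sfrp1, -3.64 to -1.73 for Sfrp2, -4.13 to -2.26 for Sfrp4, 2.82 to 5.74 for Sfrp5, 3.05 to 4.16 for Frzb, -0.20 to 0.67 for Dkk2 and -1.21 to -0.79 for Dkk3, with Dkk2 at -0.20 without the Cldn1-led cells.

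In counts of members 2-fold apart by co-detection, Ptch1 in SM22-SmoM2 fibroblasts gave 1 instead of 4 after thinning to 1500 UMIs, and Ptch1 in control fibroblasts gave 1 instead of 2 in male cells. A limit of 1.5-fold gave 5 instead of 3 for Wnt2 and 5 instead of 2 for Wif1 in SM22-SmoM2 fibroblasts. Single co-detection ratios that changed sign were Sfrp5 with Wnt2 (-1.66) and with Wif1 (-0.24) in SM22-SmoM2 fibroblasts under the 5% limit, and, after thinning to 2500 UMIs, Dkk2 with Wnt2 (-0.15) and Sfrp1 with Wif1 (0.16) in SM22-SmoM2 and Dkk2 with Ptch1 (0.93) in control fibroblasts. Apart from the construction of the 5% setting, the cause was not tested. No paired analysis was possible because each genotype had 1 library, and for the same reason no replicate could be left out.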
